A study of Trichoderma cf. simile with 24 samples.

Results

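The genes described here are 120 of the 12486 numbered gene models of a filamentous fungus, Trichoderma cf. simile strain WF8, chosen because they stood higher at day 3 in cultures with 9,10-dibutoxyanthracene than in control cultures or in cultures with 4-phenoxybenzoic acid of the same day. The members were chosen by measured values, namely group means of the deposited FPKM (read counts divided by gene length and by a scaled library size), compared as log2(mean FPKM + 1). A member had a day 3 difference of at least 1 from the control and of at least 1 from 4-phenoxybenzoic acid. It also differed by less than 1 between 9,10-dibutoxyanthracene and control at day 1, between phenetole and control at both days, and between days in the control. The limit on phenetole leaves room for a moderate difference at day 1, and part of the members used that room. The mean with 9,10-dibutoxyanthracene at day 3 was the highest of the 8 groups in 108 members, the phenetole mean of day 1 was the highest in 10 and the 4-phenoxybenzoic acid mean of day 1 in 2. The genes are therefore called the 120 member genes below and not genes of 9,10-dibutoxyanthracene alone.

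RNA was sequenced from mycelium of the WF8 strain in shaken flasks, grown for 60 h in Sabouraud maltose broth before a lignite model compound was added. The groups were 9,10-dibutoxyanthracene (DBA) at 5 mg/L, phenetole (PE) at 200 mg/L, 4-phenoxybenzoic acid (PBA) at 10 mg/L and a control without a model compound, each sampled 1 and 3 days after addition in 3 flasks, which gives 24 libraries. DBA and PBA came from stocks in dichloromethane, which by the stated strengths made up 2.5% and 5% of the culture volume, while PE was added neat. Copper, manganese and veratryl alcohol are also listed as additions, and the labels leave it unsaid if control flasks had them or any dichloromethane, so that against the control an effect of DBA and one of its solvent cannot be told apart. All groups are a single strain, and the labels do not say whether flasks with the same number at both days are the same culture. Library totals ranged from 16767477 to 19842379 counts.

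Lignite is brown coal, and its model compounds carry bond types of the coal matrix on a small aromatic skeleton. In DBA, butoxy groups are bound through ether oxygens to anthracene, a fused-ring aromatic hydrocarbon. Filamentous fungi are known to oxidise such aromatics with cytochrome P450 monooxygenases, laccases and peroxidases, to cleave alkyl aryl ethers by O-dealkylation, and to conjugate or export the products. None of these roles can be assigned here, because the files give the genes by ID, with neither product nor sequence. Each member is therefore described by its ID, its length and its values. The members were 90 to 13244 bp long with a median of 1673.5 bp, against a median of 1467 bp over the 11962 models whose length could be recovered.

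At day 3 the member genes together took 1.62%, 2.21% and 2.17% of all counts in DBA flasks 1, 2 and 3, against 0.802%, 0.772% and 1.08% in PBA flasks, 0.768%, 0.59% and 0.685% in PE flasks and 0.829%, 0.878% and 0.77% in control flasks. All 3 DBA shares lay above the shares of the other 21 libraries, the highest of which was 1.22% in a PE flask of day 1. In bulk mycelium, more cells that carry a transcript and more transcript per cell cannot be told apart. The median member stood at 16.1, 28.6 and 20.8 FPKM in the DBA flasks of day 3, against 7.31, 7.33 and 7.01 FPKM in the control flasks of that day. Flask 1 was the lowest of the 3 DBA libraries and flask 2 the highest. The rule guarantees the direction of these differences, which are given as a description with no test.

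**Figure D1:**
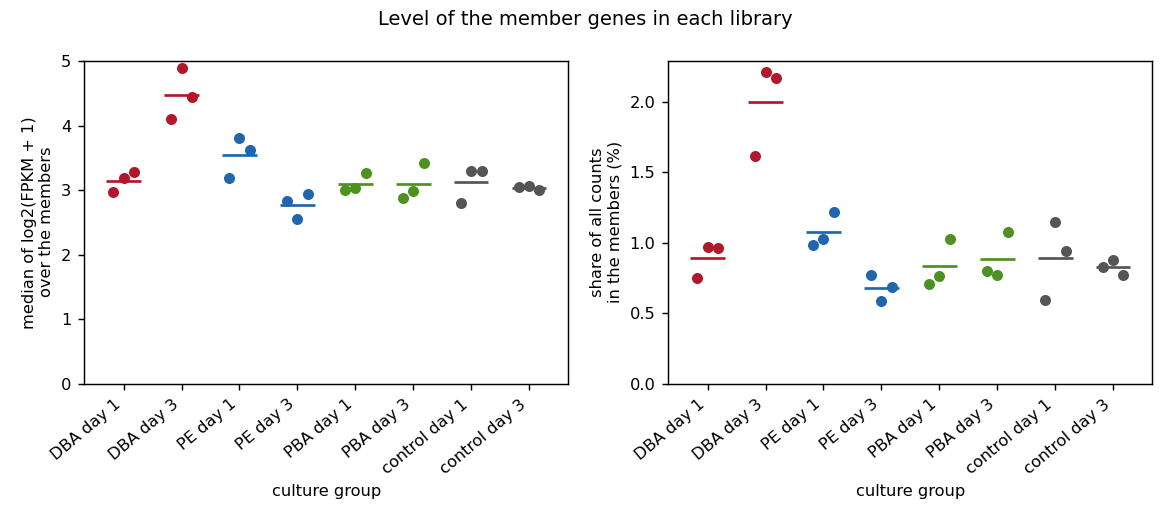
Each point is a library and each line the mean of 3 flasks, for DBA (9,10-dibutoxyanthracene), PE (phenetole), PBA (4-phenoxybenzoic acid) and control cultures at day 1 and day 3; left, the median of log2(FPKM + 1) over the 120 member genes, right, the percent of all counts in them. The DBA libraries of day 3 hold 1.62% to 2.21% of counts in the members, and the PE libraries of day 1 come next with up to 1.22%.

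Over the 120 members the day 3 difference of DBA from control had a median of 1.32 on the log2(FPKM + 1) scale and ran from 1.00 to 4.59, and 9 members reached 2 or more. Over the 9679 models with a mean of at least 1 FPKM in any group the median was −0.0042, and 7.73% of them reached 1. Among the 94 members with a control mean of at least 1 FPKM, the ratio of the day 3 means was 2.04 to 29.8 with a median of 2.87. The control level was under 1 FPKM in 26 members, between 1 and 10 in 43, between 10 and 100 in 45 and at least 100 in 6. With DBA no member averaged under 1 FPKM, 43 averaged 1 to 10, 50 averaged 10 to 100 and 27 averaged at least 100. Most members were thus expressed in the control as well, and 3 had 0 counts in all control flasks of day 3. At least 10 counts were present in every DBA flask of day 3 for 111 members.

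Trisim1_005856 (3383 bp) had the largest difference, and its level stood apart from every other library. It reached 93, 104 and 168 FPKM in DBA flasks 1, 2 and 3 at day 3, against 5.31, 5.02 and 18.4 FPKM in PBA flasks and 5.98, 4.21 and 2.08 FPKM in control flasks. Its means were 122 ± 40.7, 9.59 ± 7.67 and 4.09 ± 1.95 FPKM (SD, n = 3 each), a difference of 4.59 from the control on the log2(FPKM + 1) scale. At day 1 the same gene had 4.56, 2.6 and 1.82 FPKM with DBA and 3.03, 2.98 and 5.01 FPKM in the control, so the high level was present at day 3 and not at day 1. The nearest library was PBA flask 3 of day 3, and PE flasks stayed between 1.15 and 3.04 FPKM at both days.

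Trisim1_011823 (2579 bp) and Trisim1_001145 (720 bp) showed the same shape at lower levels. Trisim1_011823 had 28.2, 28.6 and 33 FPKM with DBA at day 3, against 4.09, 4.6 and 11.2 FPKM with PBA and 5.87, 7.48 and 3.29 FPKM in the control. Trisim1_001145 had 20.9, 21.1 and 17.1 FPKM with DBA, against 4.35, 5.17 and 13.3 FPKM with PBA and 3.91, 4.48 and 1.8 FPKM in the control. The DBA flasks of both genes were close together and above all other libraries, and PBA flask 3 was the highest of its group in both, as in Trisim1_005856. That PBA flask was the highest of its group in 90 of the 117 members with a count there. Trisim1_008205 (396 bp) was low elsewhere and had 4.56, 10.9 and 7.11 FPKM with DBA at day 3, against 1.1, 0.31 and 0.606 FPKM with PBA and 0.743, 1.09 and 0.173 FPKM in the control. Its highest library outside DBA at day 3 was PE flask 1 of day 1 at 2.5 FPKM.

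For the other 2 of the 6 largest differences, the mean hides how the flasks differed. Trisim1_011235 (2891 bp) had 11, 299.9 and 9.76 FPKM in DBA flasks 1, 2 and 3 at day 3, against 9.86, 12 and 6.58 FPKM in control flasks. Flask 2 held 93.5% of the sum of its DBA flasks, and the other 2 flasks lay within the range of the other groups, which spanned 6.58 to 15.7 FPKM. Trisim1_000638 (696 bp) had 38.3, 431 and 237 FPKM with DBA at day 3, against 15, 14.7 and 13.2 FPKM with PBA and 21.3, 22.7 and 34.7 FPKM in the control. DBA flask 1 lay just above the control flasks of day 3 and within the range of day 1 libraries, which had 26.7, 56.3 and 108 FPKM with DBA, 70.9, 68.4 and 61.7 FPKM with PE and 54.8, 18 and 57.7 FPKM in the control.

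**Figure D2:**
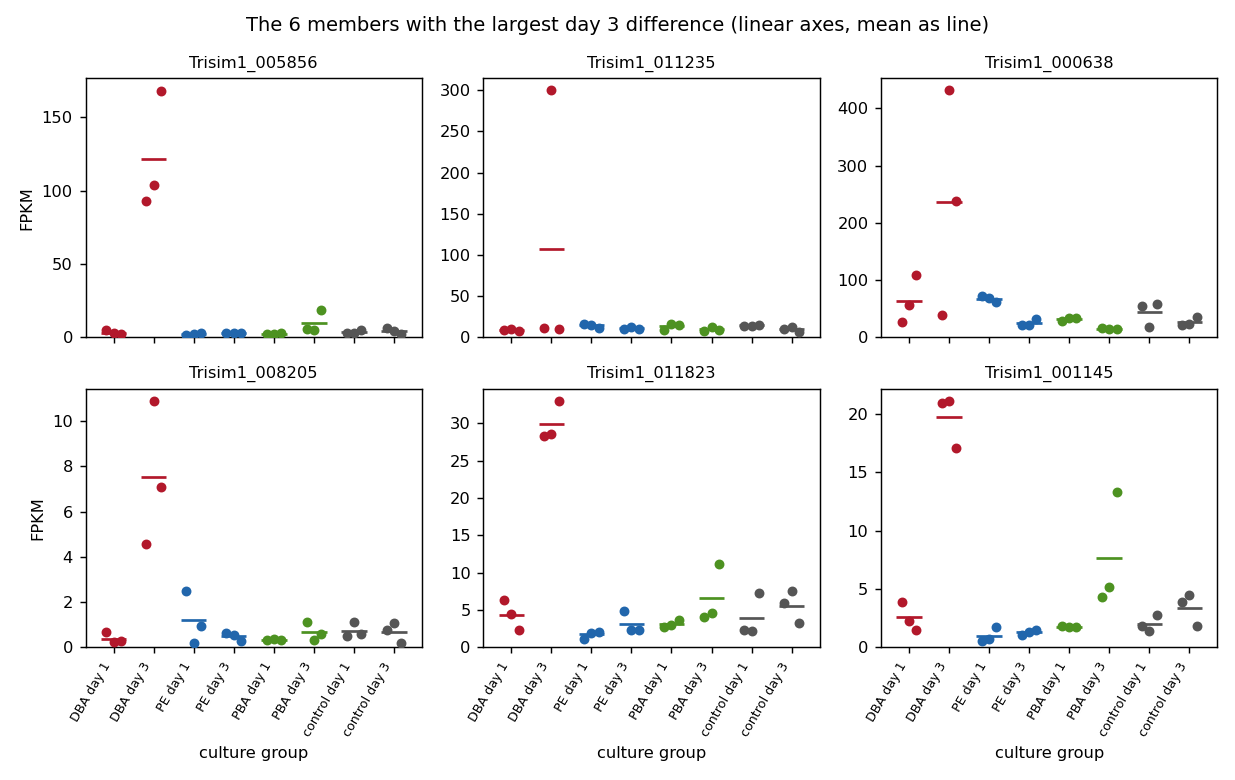
FPKM of the 6 members with the largest day 3 difference of DBA from control, by group, with a point per flask (flasks 1 to 3 from left) and the mean as a line; each panel has its own linear axis from 0. In Trisim1_005856, Trisim1_008205, Trisim1_011823 and Trisim1_001145 all 3 DBA flasks of day 3 lie above every other library, while Trisim1_011235 is high in flask 2 alone, at 299.9 FPKM.

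The 6 most abundant members with DBA at day 3 were expressed in every culture. Trisim1_009144 (3837 bp) was the most abundant, with 1260.3, 1527 and 2649.8 FPKM in DBA flasks at day 3, against 512, 477 and 550.2 FPKM with PBA and 573, 657 and 902 FPKM in the control. At day 1 it stood as high with PE, at 1999.6, 1805 and 2381 FPKM, and 2 of the 3 control flasks of day 1 were above DBA flask 1 of day 3 (382, 1537 and 1374 FPKM). Trisim1_011166 (1722 bp) averaged 246 ± 65.7 FPKM with DBA at day 3 and 443 ± 34 FPKM with PE at day 1 (SD, n = 3 each). All 3 of its DBA flasks of day 3 were below all 3 PE flasks of day 1.

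Trisim1_011839 (1395 bp) was the most even member. Its DBA flasks of day 3 had 333, 335 and 369 FPKM, against 82.9, 80.3 and 161 FPKM with PBA and 92, 105 and 72.3 FPKM in the control, and its highest library elsewhere was PBA flask 3 of day 3 at 161 FPKM. Trisim1_008516 (3735 bp) had 307, 225 and 397 FPKM with DBA, against 53.3, 47.3 and 65.7 FPKM with PBA and 66.5, 123 and 130.1 FPKM in the control, and all 3 DBA flasks were above the other 21 libraries. Trisim1_006177 (567 bp) averaged 388 ± 137 FPKM with DBA at day 3 and 157 ± 38.9 FPKM in the control (SD, n = 3 each). Its DBA flask 1 of day 3, at 239 FPKM, was below all 3 PE flasks of day 1 (393, 362 and 248 FPKM). Trisim1_001972 (1701 bp) averaged 317 ± 129 FPKM with DBA and 109.7 ± 19.7 FPKM in the control, with DBA flask 1 at 175 FPKM the lowest of its group. It stood at 189.8, 206 and 207 FPKM in the PE flasks of day 1.

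The DBA flasks of day 3 differed among themselves more for the members than for other genes. The median SD over flasks was 0.499 on the log2(FPKM + 1) scale for the members in this group, against 0.198 over the 9679 models. In the control of day 3 the SD was 0.321 for the members and 0.276 over the models. DBA flask 1 was the lowest of the 3 in 83 members and the highest in 5, while over the models it was the lowest in 29.9% and the highest in 37.8%. Flask 3 was the highest in 65 members and flask 2 in 50. Set against the control mean of day 3, the median member was higher by 0.87 in flask 1, 1.43 in flask 2 and 1.46 in flask 3 on that scale. A difference of at least 1 was present in 47, 98 and 102 members in these flasks, and a difference above 0 in 115, 120 and 120. Which flask is high bears on every mean given here, because the choice by means admits a gene that a single flask lifts. The same choice favours a wide spread in these flasks, so nothing is read from the wider spread of the members. The flasks' total counts were 18033101, 19842379 and 18134946, and what sets flask 1 apart was not tested.

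In 40 members a single flask held over 50% of the summed FPKM of the 3 DBA flasks, which was flask 2 in 23, flask 3 in 16 and flask 1 in 1. Over the models 9.59% had such a split. The choice by means favours it, so nothing is read from the excess. After Trisim1_011235 the least even was Trisim1_003836 (94 bp), with 0, 0.546 and 2.92 FPKM, which rest on 0, 1 and 4 counts. The same gene had 0, 1 and 4 counts in the DBA flasks of day 1 as well, and 0 in every library without DBA. Other members lifted by flask 2, named after their values were seen, were Trisim1_004832 (762 bp) with 6.08, 45.9 and 9.37 FPKM in the DBA flasks, Trisim1_010855 (909 bp) with 11.7, 65 and 11.9 FPKM and Trisim1_011659 (1020 bp) with 11.3, 55 and 18.6 FPKM. Their control means of day 3 were 7.14 ± 2.46, 7.82 ± 1.73 and 10.8 ± 3.64 FPKM (SD, n = 3 each).

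At the even end, 28 members had no flask above 40% of the sum, and in 23 of these all 3 DBA flasks were above all other 21 libraries. The median largest share was 46.1% over the members and 38.8% over the models, a difference that the choice by means favours. For a given mean, an even split lifts the lowest flask, so nothing is read from the 23. Trisim1_001021 (1560 bp) followed Trisim1_011839 with 6.23, 6.85 and 7.26 FPKM with DBA at day 3, against 1.42, 1.68 and 2.54 FPKM with PBA and 0.97, 1.82 and 5.52 FPKM in the control, and its flasks were also above every other library. In all, 50 of the 120 members had DBA flasks of day 3 that lay above all other 21 libraries, a pattern held by 4.02% of the models. All 3 DBA flasks were above all 3 control flasks of day 3 in 106 members, against 21.3% of models, and above all 3 PBA flasks of day 3 in 110, against 22.5% of models. The rule used these contrasts, so nothing is read from the excess.

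**Figure D3:**
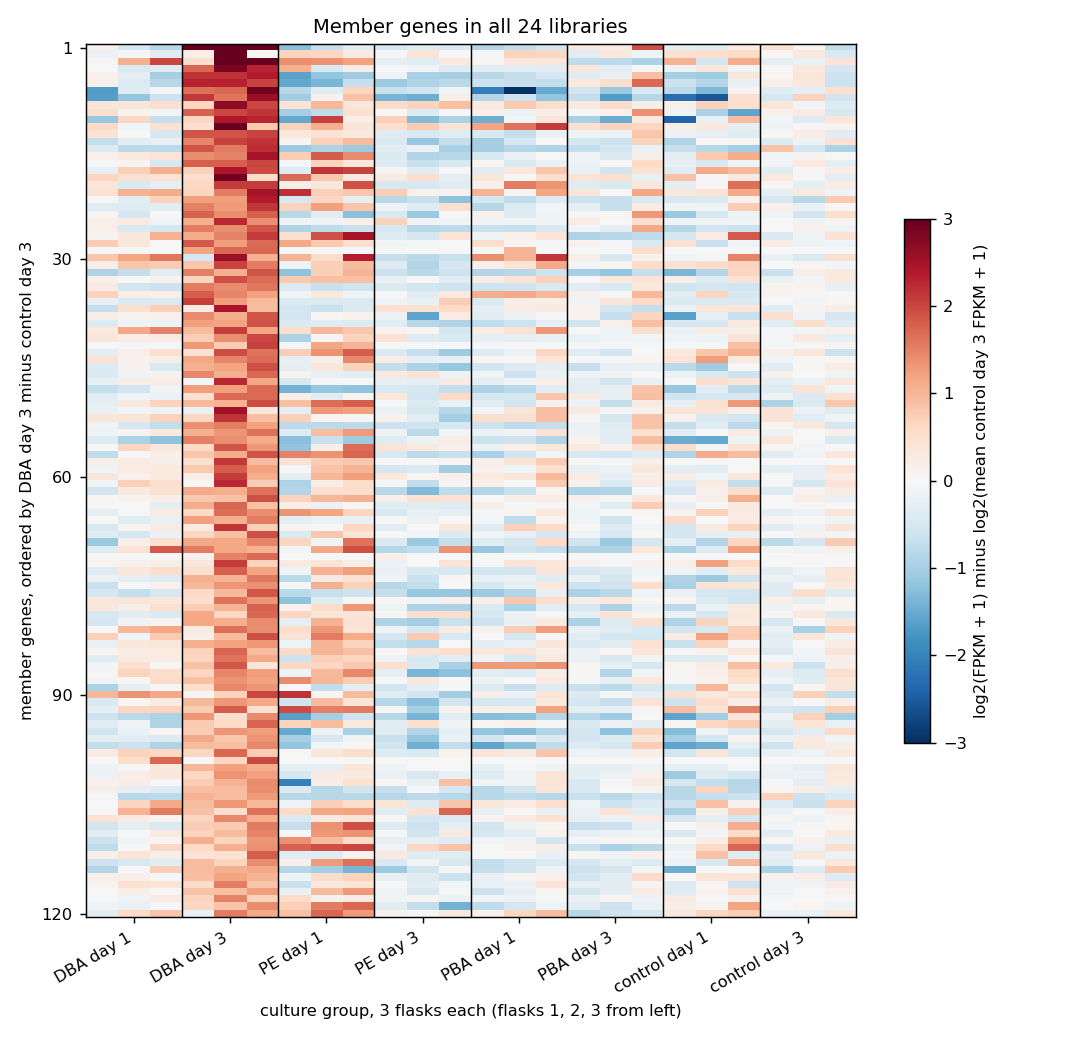
Rows are the 120 member genes ordered by the day 3 difference of DBA from control, columns the 24 libraries, and colour the log2(FPKM + 1) of a library minus the log2(mean FPKM + 1) of the control flasks of day 3 (capped at both ends of the scale). The DBA columns of day 3 are above the control mean in 115, 120 and 120 rows and palest in flask 1, and a part of the members is also red in the PE columns of day 1.

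To see the same measure in flasks that did not choose the genes, the rule was applied to flasks of 2 numbers and the remaining flasks were read alone. Without the flasks numbered 1 the rule chose 128 models, of which 75 were members, and in DBA flask 1 their median difference from control flask 1 was 0.76 at day 3, with 33.6% at 1 or more. Without the flasks numbered 2 it chose 108 models (61 members), and in the flasks numbered 2 the median was 1.15 with 57.4% at 1 or more. Without the flasks numbered 3 it chose 151 models (75 members), with a median of 0.92 and 45.0% at 1 or more. Over the 9679 models the medians were between −0.02 and 0.03, and 8.72% to 10.7% reached 1. In each case at least 92.7% of the chosen models were above 0, against 48.6% to 51.9% of all models. In the left-out flasks most chosen models were thus higher in the same direction, with medians under the 1.32 of the members as chosen. Each reading sets a single DBA library against a single control library, and the models in it are not replicates. The labels do not state that the flasks were independent cultures, so these values are a description with no test.

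Against PBA the left-out medians were 0.76, 1.64 and 0.83 for flasks 1, 2 and 3, with 36.7%, 83.3% and 39.1% at 1 or more, against 9.95% to 15.6% over the models. Against PE, which the rule bounds only through the control, the left-out medians were 0.78, 1.93 and 1.35. Flask 2 thus gave the largest left-out difference in all 3 comparisons, and flask 1 the smallest. The chosen models and the reference flasks differed between these readings, so the order is not one of the DBA flasks alone. Over the members themselves, against the control mean of day 3, the median was 1.43 in flask 2 and 1.46 in flask 3.

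**Figure D4:**
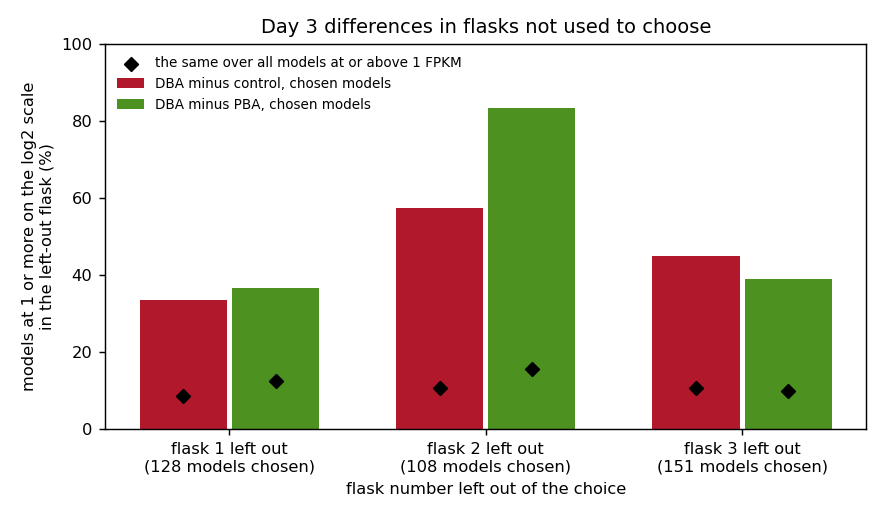
Bars give the percent of models chosen without a flask number whose day 3 difference in the left-out flask was at least 1 on the log2(FPKM + 1) scale, for DBA minus control and DBA minus PBA, and diamonds the same percent over the 9679 models. The bars run from 33.6% to 83.3% and the diamonds from 8.72% to 15.6%.

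Across the other conditions the member genes were close to the control, as the limits require, with a shift in the PE cultures of day 1. The PE difference from control at day 1 had a median of 0.50 and was at least 0.5 in 60 of 120 members, against a median of −0.06 and 23.6% of models. The models were not held to this limit or to the other conditions of the rule. They are therefore an unlike set, and the shift is a description. The DBA difference from control at day 1 had a median of 0.05, the PE difference at day 3 a median of −0.23, and the day 3 minus day 1 difference in the control a median of −0.04. The PBA difference from control at day 3, which the rule bounds only from the side of DBA, had a median of −0.09 and ran from −1.03 to 1.06. Measured from PE at day 1, the members with DBA at day 3 had a median difference of 0.97, and it was at least 1 in 59 of them. All 3 DBA flasks of day 3 were above all 3 PE flasks of day 1 in 60 members, against 29.8% of models. The corresponding counts were 98 against PE at day 3 (29.3% of models), 90 against DBA at day 1 (24.3%) and 92 against PBA at day 1 (28.6%). The rule chose the members for a high DBA mean at day 3, which favours all of these counts. Nothing is therefore read from the excess over the models.

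Of the members whose mean was highest outside DBA at day 3, 10 were highest with PE at day 1. Besides Trisim1_009144 and Trisim1_011166, named above, Trisim1_001024 (1284 bp) averaged 236 ± 83.7 FPKM with DBA at day 3 and 275 ± 161 FPKM with PE at day 1. Trisim1_002209 (2470 bp) averaged 26.7 ± 14.7 FPKM with DBA at day 3 and 39.3 ± 7.2 FPKM with PE at day 1 (SD, n = 3 each). In Trisim1_001024 and Trisim1_002209, named after their values were seen, the means differed by less than the larger of the SDs, and in Trisim1_011166 by more than either SD. The exceptions with PBA at day 1 were Trisim1_000223 (324 bp), at 5.59 ± 3.62 FPKM with DBA at day 3 and 6.23 ± 0.187 FPKM with PBA at day 1, and Trisim1_004342 (477 bp), at 4.14 ± 4.86 and 4.28 ± 2.12 FPKM in these groups. In both, the groups differed by less than the SD of the DBA flasks.

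**Figure D5:**
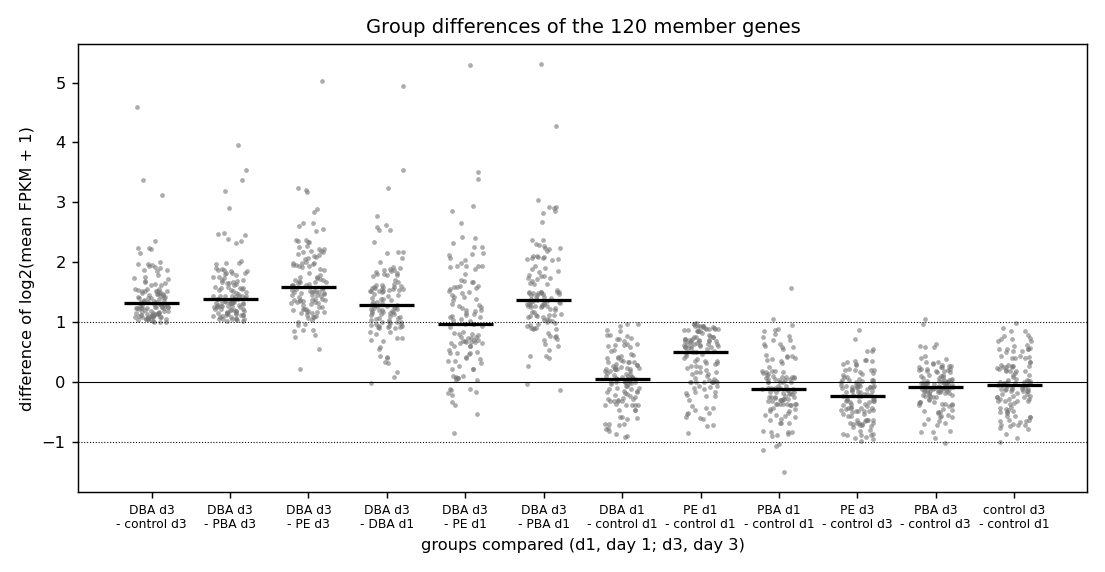
Each point is a member gene and each line the median, for 12 differences of log2(mean FPKM + 1) between groups; dotted lines mark −1 and 1. The rule fixes the first pair (DBA minus control and DBA minus PBA at day 3) at 1 or more and holds DBA and PE minus control at day 1, PE minus control at day 3 and control day 3 minus day 1 inside the lines, while PE minus control at day 1 has a median of 0.50.

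The PBA libraries of day 1 enter no condition of the rule, but the control libraries of day 1 do. PBA was tested against the control at day 1 with that limit. In edgeR's quasi-likelihood test over 10842 loci, 24% of all loci passed an adjusted p of 0.05, 10.5% higher and 13.4% lower with PBA. Of the 115 members tested, 8 passed (6.96%), 5 that rose and 3 that fell, while 5 members were too low for the filter. The fitted change was positive in 46 of the 115, with a median of −0.16 on the log2 scale, against −0.02 over all loci. The share of members called was below that of all loci. The rule had already kept the members' day 1 control close to 3 other groups, DBA at day 1 among them. Nothing is therefore read from the lower share.

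Among the members that rose, Trisim1_010835 (2912 bp) had 59.5, 81.2 and 113 FPKM in PBA flasks of day 1, against 29.4, 32.2 and 21.6 FPKM in control flasks, an edgeR log2 change of 1.62 ± 0.46 (adjusted p = 0.0133). All PBA flasks were above all control flasks. For edgeR changes, here and below, ± gives a standard error derived from the F statistic of the test, not an SD over flasks. The gene was also lifted by a single flask with DBA at day 3, at 37, 223 and 44.6 FPKM. Trisim1_011393 (6072 bp) had 9.3, 9.62 and 8.52 FPKM with PBA at day 1, against 2.82, 6.48 and 2.45 FPKM in the control, a change of 1.24 ± 0.34 (adjusted p = 0.0116, edgeR). Trisim1_008228 (1389 bp) had 41.2, 64.7 and 53.4 FPKM, against 38.7, 27.3 and 23.7 FPKM in the control, a change of 0.84 ± 0.29 (adjusted p = 0.039, edgeR). Its PBA and control flasks lay close, at 41.2 and 38.7 FPKM for the nearest pair. Trisim1_011198 (1765 bp) rests on few reads, with 5, 12 and 27 counts in the PBA flasks and 0, 1 and 0 counts in the control flasks. At day 1 it also had 8, 15 and 14 counts with PE and 5, 7 and 4 counts with DBA, so PBA was not alone above the control. The scaled ratio of pooled counts, PBA over control, was 34.4 (95% exact counting interval 5.85 to 1387, which covers counting error only). The gene's adjusted p was 0.0159 (edgeR). The fifth member that rose, Trisim1_008415 (3743 bp), changed by 0.77 ± 0.24 (adjusted p = 0.0268, edgeR), with 13.5, 15.2 and 17.8 FPKM with PBA against 8.67, 10.3 and 8.65 FPKM in the control; it falls outside the rule for named genes and was added after its value was seen.

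Among the members that fell, Trisim1_012014 (582 bp) had 6.79, 3.14 and 10.4 FPKM with PBA at day 1, against 17.9, 12 and 33.5 FPKM in the control, and its edgeR log2 change was −1.61 ± 0.51 (adjusted p = 0.0269). With DBA at day 3 the same gene stood at 101, 107 and 243 FPKM, above every other library. Trisim1_000756 (2177 bp) had 1.16, 1.57 and 2.27 FPKM with PBA, against 3.09, 2.95 and 7.29 FPKM in the control, and fell by 1.39 ± 0.45 (adjusted p = 0.0311, edgeR). Trisim1_001825 (2494 bp) had 6.81, 6.73 and 4.58 FPKM with PBA, against 7.28, 8.7 and 18.8 FPKM in the control, and fell by 0.92 ± 0.31 (adjusted p = 0.0338, edgeR). In all 3 genes that fell, control flask 3 was the highest control library. Without control flask 3 of day 1 the test called 0 of 118 members and 16.3% of all loci, with 13.6% of members and 30.04% of loci at an unadjusted p under 0.05. It called 3 of 118 members without PBA flask 2 (16.7% of loci) and 3 of 118 without PBA flask 3 (17.7% of loci). When the fit held just the PBA and control libraries of day 1, it called 2 of 97 (18.5% of loci). Each of the 8 calls was lost in 2 to 6 of its alternatives.

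PBA and DBA were both added in dichloromethane, at 10 and 5 mg/L, and their day 1 cultures were compared directly. The DBA libraries of day 1 entered the choice of members through the limit on their difference from the control, so the members' DBA level is constrained here while their PBA level is not. No member passed edgeR's test between them, where 8 of 10842 loci passed, which is 0.0738% in either direction, 0.0646% higher and 0.00922% lower with PBA. At an unadjusted p under 0.05 there were 9 of 115 members by edgeR (7.83%), against 8.61% of all loci. DESeq2 and limma also called 0 members, with 9.57% and 8.33% of members at an unadjusted p under 0.05, against 9.86% and 8.28% of loci. The fitted differences of PBA minus DBA ran from −3.68 to 2.64 on the log2 scale with a median of −0.12 and a median SE of 0.44, so that 20 members had an estimated difference of at least 1 in size without passing. For example, Trisim1_010835 differed by 1.40 ± 0.45 (adjusted p = 0.329, edgeR), with 59.5, 81.2 and 113 FPKM with PBA against 38.4, 24.2 and 35 FPKM with DBA. The PBA flasks were all higher in this gene, and the difference did not pass the test.

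Likeness to the member with the largest difference varied widely. Over the 21 libraries other than DBA at day 3, the Pearson correlation of log2(FPKM + 1) with Trisim1_005856 had a median of −0.01 over the other members, ran from −0.6 to 0.92 and was over 0.5 in 16. The libraries share their scaling and flask numbers, and the correlation is given as a description. It was not computed over the other models, so no share over them stands beside the 16. The most like was Trisim1_001145, at 0.92, followed by Trisim1_005291 (1914 bp), at 0.83, Trisim1_006622 (3409 bp), at 0.82, and Trisim1_011823, at 0.81. Trisim1_005291 had 3.45, 3.94 and 2.98 FPKM with DBA at day 3, against 0.518, 0.321 and 2.11 FPKM with PBA and 0.791, 1.13 and 0.214 FPKM in the control. Trisim1_006622 had 5.15, 4.47 and 6.77 FPKM with DBA, against 0.988, 0.696 and 3.61 FPKM with PBA and 1.06, 1.33 and 0.883 FPKM in the control. PBA flask 3 of day 3 was again the highest of its group in both genes, as it was in 90 of the 117 members with a count there. At the other end, Trisim1_006074 (2562 bp), at −0.6, and Trisim1_000638, at −0.6, ran opposite to Trisim1_005856 outside DBA at day 3. The likeness measure was added after the values were seen.

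A set of 10 members met the rule under all 10 alternatives to it (another pseudocount, other averages, scalings and thresholds, and without each flask number). They were Trisim1_005049, Trisim1_005856, Trisim1_008205, Trisim1_009751, Trisim1_010905, Trisim1_011098, Trisim1_011839, Trisim1_011966, Trisim1_012014 and Trisim1_012452, named here for that reason after their values were seen. The alternative with rises of at least 0.8 keeps every member by its form, and all 10 re-use the libraries that chose the genes. The set is therefore a description and not a test. Trisim1_005049 (1983 bp) had 34.7, 34.4 and 40.2 FPKM with DBA at day 3, against 8.13, 9.3 and 14.6 FPKM with PBA and 8.69, 11.7 and 7.45 FPKM in the control. Trisim1_011098 (906 bp) had 34, 30.05 and 42.4 FPKM with DBA, against 12.9, 8.8 and 13.9 FPKM with PBA and 15.1, 13.9 and 12.8 FPKM in the control. The DBA flasks of both genes lay above all other 21 libraries. Trisim1_009751 (1994 bp) and Trisim1_012452 (805 bp) were low genes, with 3.6, 3.19 and 3.82 FPKM and 3.23, 2.3 and 4.09 FPKM in the DBA flasks and at most 0.962 and 1.07 FPKM in any other library. Trisim1_010905 (90 bp) had 1.25, 2.28 and 2.29 FPKM in the DBA flasks of day 3, which rest on 2, 4 and 3 counts, was at 0 FPKM in all control flasks and reached 1.04 FPKM in PBA flask 2 of day 1. Trisim1_011966 (669 bp) had 2.28, 3.07 and 3.69 FPKM with DBA and 0.377, 0.504 and 0.511 FPKM in the control at day 3, but PE flask 3 of day 1 reached 2.99 FPKM.

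Where the members lie was read only from the ID numbers, since no coordinates were used here. Members made up 0.961% of the numbered models. Of the members, 6 had another member as the next number and 10 had a member within 2 numbers, in 5 pairs. These counts look at several positions on both sides of each member, so they are not to be set against the 0.961%, which holds for a single position. Trisim1_004696 (873 bp) and Trisim1_004697 (1098 bp) had 18, 62.7 and 44.7 FPKM and 9.46, 28.9 and 22.8 FPKM with DBA at day 3, against 8.57, 11.1 and 12.8 FPKM and 7.54, 8.72 and 3.92 FPKM in the control. Both were lowest in DBA flask 1 and overlapped the PE flasks of day 1, at 8.02, 52.6 and 46.9 FPKM and 11.9, 18.6 and 26.3 FPKM. Trisim1_006479 (1209 bp) had 44.9, 105 and 74.9 FPKM with DBA, against 25.3, 26.4 and 23.4 FPKM in the control, and its neighbour Trisim1_006478 (717 bp) was far lower, at 1.42, 4.58 and 4.6 FPKM against 0.528, 0.269 and 1.34 FPKM. Trisim1_007776 (1155 bp) had 99.2, 447 and 156 FPKM with DBA, against 65.3, 86.9 and 92.4 FPKM in the control, and Trisim1_007777 (1725 bp) had 33.2, 63.3 and 58.9 FPKM, against 15.1, 23.7 and 29.5 FPKM. In each pair flask 1 was the lowest DBA flask in both genes, as it was in 83 of all 120 members. Of 195 expressed models next to a member that were not members themselves, 31 (15.9%) had a day 3 difference of at least 1 from the control, against 7.73% of all expressed models. Their median was 0.09, and the sources used here do not say if the numbering follows the genome.

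At the edge of the rule, the values of members and non-members were alike. Just inside the control threshold lay Trisim1_006074, with a difference of 1.00 (3.91 FPKM with DBA and 1.45 FPKM in the control at day 3), and Trisim1_000756, with 1.01. Just outside lay Trisim1_000021 and Trisim1_009045, at 0.998 and 0.997, with 61.2 and 85.9 FPKM with DBA and 30.2 and 42.6 FPKM in the control. For the PBA threshold, Trisim1_005158 and Trisim1_006478 lay inside, at 1.02 and 1.03, and Trisim1_006796 and Trisim1_007771 outside, at 0.999 and 0.989. The list also moved with the scaling of the libraries. The authors' scaled library size was 0.803 to 0.982 of the total count in the DBA libraries of day 3, 1.31 to 1.32 of it in the PBA libraries and 0.8 to 1.22 in the control libraries. With FPKM by the raw library total, the median of all models was −0.15 for DBA minus control and −0.46 for DBA minus PBA at day 3. The medians of the members were 1.20 and 0.99 on that scale, 68 models met the rule, and 49 of these were members. All 120 members were still above the control and above PBA in their means on that scale. In edgeR's fit, which scales by TMM, 84 of the 115 members tested were called higher with DBA at day 3, a direction in which 5.24% of all loci were called. The rule used this contrast, so the count is a description, and it moved with single libraries. It was 39 without DBA flask 2, 45 without DBA flask 3, 46 without control flask 1 and 45 without control flask 2, where 193, 208, 281 and 192 loci in all were called higher, against 568 with every library.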

How the data were processed

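The authors deposited read counts per gene and FPKM for 24 libraries. The counter was featureCounts 1.5.0-p3 per the submitters' processing notes, and the sources used here name no aligner, build or annotation. The deposited FPKM were checked against the deposited counts: each equals the count over the gene length and over a library total rescaled by median-of-ratios factors, and all 12728 recovered gene lengths were whole within 0.01. Levels and the choice of members use these FPKM with a pseudocount of 1.

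Counts were tested in R 4.3.3 with edgeR 4.0.16 (filterByExpr at a minimum count of 10 over the 8 groups, TMM, quasi-likelihood F test, two-sided, a coefficient per group over all 24 libraries, Benjamini-Hochberg over 10842 loci, called at an adjusted p under 0.05). DESeq2 1.42.0, limma 3.58.1 on log2(FPKM + 1) for loci with a mean of at least 1 FPKM in any group, RLE scaling, no filter, the compared groups alone, the flask number as a block and leaving out each library were alternatives. The labels do not state that the flasks were independent cultures, and the p-values therefore reflect spread among the libraries, which may be technical.

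The members, the lists and the tests were chosen with earlier results of these data known. By rule, genes were named for the 6 largest day 3 differences and the 6 highest levels, for passing the PBA day 1 test without overlap (up to 4 a direction by size of change), for neighbouring numbers, for lying at a threshold and for the most and least even flasks. No product list was scored, because the IDs are not paired with products.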

Additional observations from a re-analysis of the deposited data

How the results depend on the processing

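Counts of calls at day 1 moved with the settings. For PBA against control, 8 members and 24% of loci were called. With the flask number as a block these were 15 members and 27.7% of loci, and with only the compared groups 2 and 18.5%. Leaving out a library gave 0 to 11 members and 1699 to 2932 loci. For PBA against DBA the 8 loci called became 62 with DESeq2, 15 with limma, 5 with only the compared groups and 1 to 60 on leaving out a library; 0 members were called in every setting. For DBA against control at day 3, leaving out a library gave 703 to 1387 loci and 39 to 78 members, and the other settings moved neither count by over 1.5 times. Of the 95 alternative values for the 8 members called with PBA at day 1, 31 no longer passed and none changed sign. The labels do not say that a flask number marks anything shared. Deviations of same-numbered flasks correlated by 0.052 to 0.302 for PBA and control at day 1, by −0.093 to 0.234 for PBA and DBA, and by −0.137 to 0.154 for DBA and control at day 3. Flasks 1 and 3 were above 0.1 in all 3 comparisons and flask 2 in none, so pairing was not taken as given. For PBA and control at day 1 every flask correlated best with its own number, a hint from the data and not from the design.

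The rule chose 235 models with rises of at least 0.8, 76 with limits of 0.8, 68 with FPKM by the raw library total and 108 to 151 on leaving out a flask number. With the flask median in place of the mean it chose 121, of which 63 were members. The median difference of the members from PBA at day 3 was 0.99 with FPKM by the raw library total, against 1.39; this alternative was chosen after seeing the data. The other settings moved the medians by less than their SD over flasks, and leaving out a library gave 1.24 to 1.51 for the control and 1.31 to 1.59 for PBA. Members under 10 counts in a DBA flask limit the precision of the lowest levels.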

Other observations

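Flask 3 was the flask in which the members were most often highest in each of the 8 groups, from 45.3% of members with a count in the PE cultures of day 3 to 72.6% in PBA at day 1 and 76.9% in PBA at day 3. In PBA at day 3 flask 3 held over 50% of the sum of 3 flasks in 37 of 117 members, against 8.52% of the models. Over the models at or above 1 FPKM, flask 3 was the highest in 32.5% to 41.5% across the groups. The rule used group means and no flask numbers, and the PBA libraries of day 1 entered no condition. What the flasks numbered 3 share is not given in the labels, and it was not tested.

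Among the 40 members with over 50% of their DBA level of day 3 in a single flask, all 3 DBA flasks were above the control flasks in 28 and above all other 21 libraries in 6. Among the other 80 members, 44 were above all other 21 libraries. The median day 3 difference from control was 1.34 in the first set and 1.30 in the second. An even split lifts the lowest flask for a given mean, so nothing is read from the counts above all other libraries. The sets were formed after the values were seen and are given without a test.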
